A study of Mus musculus with 12 samples.

Results

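The response to lipopolysaccharide (LPS) of macrophages that also received microparticles (MP) was read from 6 of the 12 libraries of the study, by comparing 3 libraries labelled LPS+MP with 3 labelled MP. Every gene that reached 1 CPM (read counts scaled to library size) in at least 3 of the 12 libraries was included, which kept 11745 of the 11762 genes of the deposited table and left out 17. The cells were J774A.1, a macrophage-like line of BALB/c origin, so all libraries represent 1 line in culture. The 4 groups were untreated cells (control), cells given MP, cells given LPS and cells given LPS+MP, each with 3 biological replicates, and the labels name no genetic change in any of them. Both groups compared here carry MP, so the difference between them is the addition of LPS. The composition, size and dose of the particles, the dose of LPS, the times of exposure and the order in which the agents were given are not stated in the labels.

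LPS is a glycolipid that coats Gram-negative bacteria. On macrophages it is handed by CD14 to the complex of Toll-like receptor 4 (TLR4) and MD-2, which signals through the adaptors MyD88 and TRIF. The MyD88 arm leads to NF-kB, MAP kinases and inflammatory cytokines, and the TRIF arm leads to IRF3, type I interferon and interferon-stimulated genes. Macrophages exposed to LPS are also known to leave the cell cycle and to shift their sugar and arginine metabolism.

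Levels are in CPM and, where not listed by library, are the mean ± SD of 3 libraries per group. A log2 fold change is the difference of group means on the log2(CPM + 1) scale, followed by its SE, and it understates the change of genes near 0 CPM. Genes that rose or fell are those for which limma gave an adjusted p under 0.05 and a change over 1 on that scale. The p-values set each difference against the spread between the biological replicates of 1 cell line, estimated over all 4 groups. That spread includes the LPS group, where the median SD of a gene was 0.19 (log2), against 0.08 in control. Depth per library is unknown because whole reads could not be recovered in most libraries, and values carry no counting interval.

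Libraries of the compared groups were close to their own group: the median correlation of a library with the others of its group was 0.995 to 0.996 across genes, and the median SD of a gene was 0.10 (log2) in MP and 0.09 in LPS+MP. LPS replicate 2 stood apart in the group given LPS alone, at a median correlation of 0.979, and the interaction results below, which use that group, are followed by their values without it. The macrophage markers were all in the table, 10 of 10, with summed levels of 6480 to 6950 CPM in MP and 6360 to 6700 CPM in LPS+MP. Of them Emr1 (the gene of F4/80), Cd14 and Fcgr1 rose, and Lyz2 fell. The defining markers of B cells, mast cells, erythroid cells and epithelial cells that were looked for were not among the table's genes. The other marker lists were in the table with 1 to 3 genes each, of which Pdgfra rose and the rest were not called. The platelet list, with Pf4 as its most abundant gene, summed to 298 to 322 CPM in MP and 383 to 460 CPM in LPS+MP, and its part in the results was not tested. The summed share of mitochondrially encoded genes was 7.14% ± 0.553 in MP (6.69 to 7.76) and 4.13% ± 0.378 in LPS+MP (3.90 to 4.57). The shares did not overlap, with an exact two-sided permutation p of 0.10, the smallest that 3 against 3 libraries allow. In bulk RNA, fewer cells of a type and less RNA per cell cannot be told apart.

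Adding LPS to MP-treated cells raised inflammatory, interferon and antimicrobial genes and lowered genes of mitosis and DNA replication. In all, 671 genes rose and 926 fell, which is 5.71% and 7.88% of the genes tested and 13.6% together. Changes over 4-fold were found in 252 genes that rose and 300 that fell, and changes over 16-fold in 55 and 41. For each of the 1597 called genes the MP and LPS+MP libraries did not overlap, but that was also so for 68.6% of all genes tested. Without the size threshold 2232 genes were higher (19.0%) and 4295 lower (36.6%). The median change of all genes was -0.14, and it moved to -0.02 with quantile normalization and -0.01 with median-ratio scaling. The split of calls moved with it, from 671 up and 926 down (42.0% up) to 758 and 730 (50.9% up) and to 787 and 752 (51.1% up), so that the excess of falls over rises was not present under those scalings. Of the tested genes, 178 lay under 1 CPM in every MP and control library and could pass the filter only through the LPS groups; 117 of these rose. The lists of feedback inhibitors, costimulatory ligands, MAP kinase phosphatases and matrix genes held 1 such member each, and lists with more are named below. Lists and their members were chosen with earlier results of these data known. Their counts thus describe the lists, not whole classes of genes, and stand beside the 5.71% risen and 7.88% fallen of all genes.

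**Figure D1:**
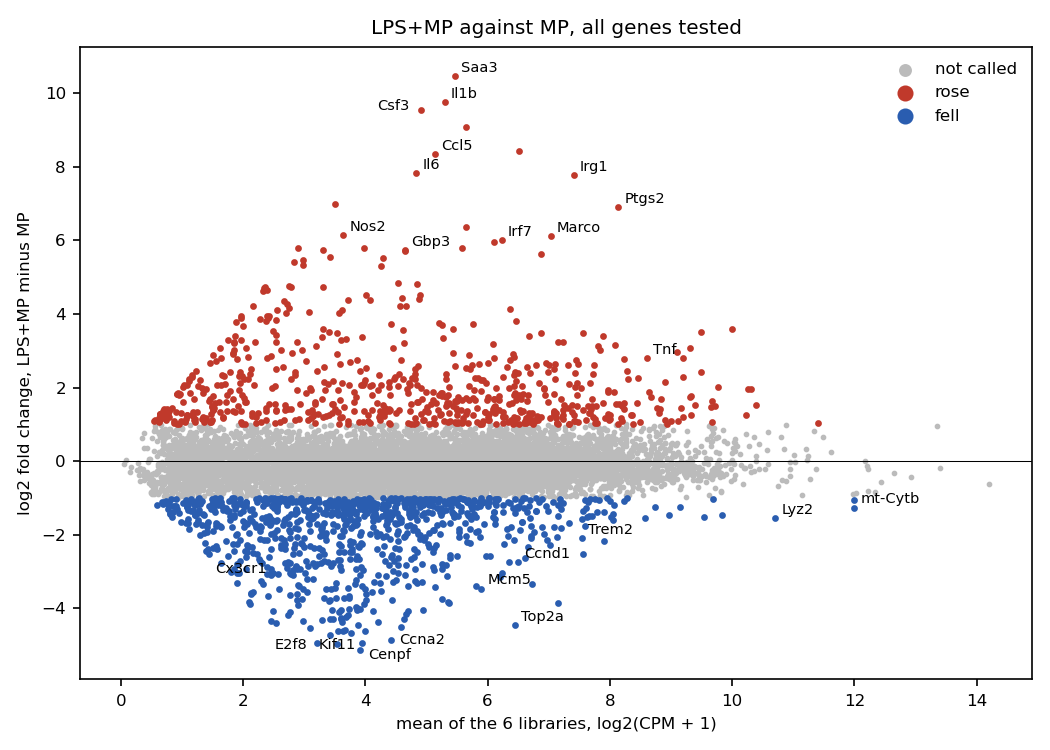
Each point is 1 of the tested genes, with the mean level of the 6 libraries on the x axis (log2 of CPM + 1) and the log2 fold change of LPS+MP over MP on the y axis; red points rose, blue points fell and grey points were not called. Saa3 lies highest at 10.47 and Cenpf lowest at -5.14, and the upper and lower edges at the left are set by genes that were near 0 CPM in 1 of the groups.

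The largest rises were those of Saa3, Il1b and Csf3. Saa3 (chr7:46711998-46715676), an acute phase gene that macrophages make under inflammation, stood at 0.0246, 0.122 and 0.402 CPM in the MP libraries and at 1580, 1790 and 1610 CPM in the LPS+MP libraries (10.47 ± 0.12, limma adjusted p = 4.3e-18). Il1b (chr2:129364570-129371139), the gene of interleukin 1 beta, was 0.322, 0.516 and 0.178 CPM in MP and 1180, 1170 and 1120 CPM in LPS+MP (9.76 ± 0.10). Csf3 (chr11:98701263-98703629) encodes G-CSF, the growth factor of neutrophils, and went from 0.124, 0.147 and 0.0508 CPM to 871, 775 and 820 CPM (9.54 ± 0.11). These genes were barely present in MP-treated cells and abundant in every library with LPS added. The largest falls were those of Cenpf (chr1:189640599-189688086) and Casc5, both kinetochore genes, E2f8, a repressor of the E2F family, and Kif11 (chr19:37376403-37421859), the motor that separates spindle poles. Cenpf read 96.8, 87.5 and 80.1 CPM in MP and 0.922, 1.62 and 2.21 CPM in LPS+MP (-5.14 ± 0.20). Casc5 was 64.9, 62 and 64.7 CPM in MP and 0.726, 0.673 and 2.08 CPM in LPS+MP (-4.97 ± 0.20). For E2f8 the values were 52.7, 47.9 and 49.7 CPM against 0.474, 0.871 and 0.654 CPM (-4.94 ± 0.12). Kif11 went from 87.4, 80.2 and 85.2 CPM to 1.62, 1.57 and 2.26 CPM (-4.93 ± 0.12). These cell division genes were abundant in every MP library and near 1 or 2 CPM or lower in every LPS+MP library.

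**Figure D2:**
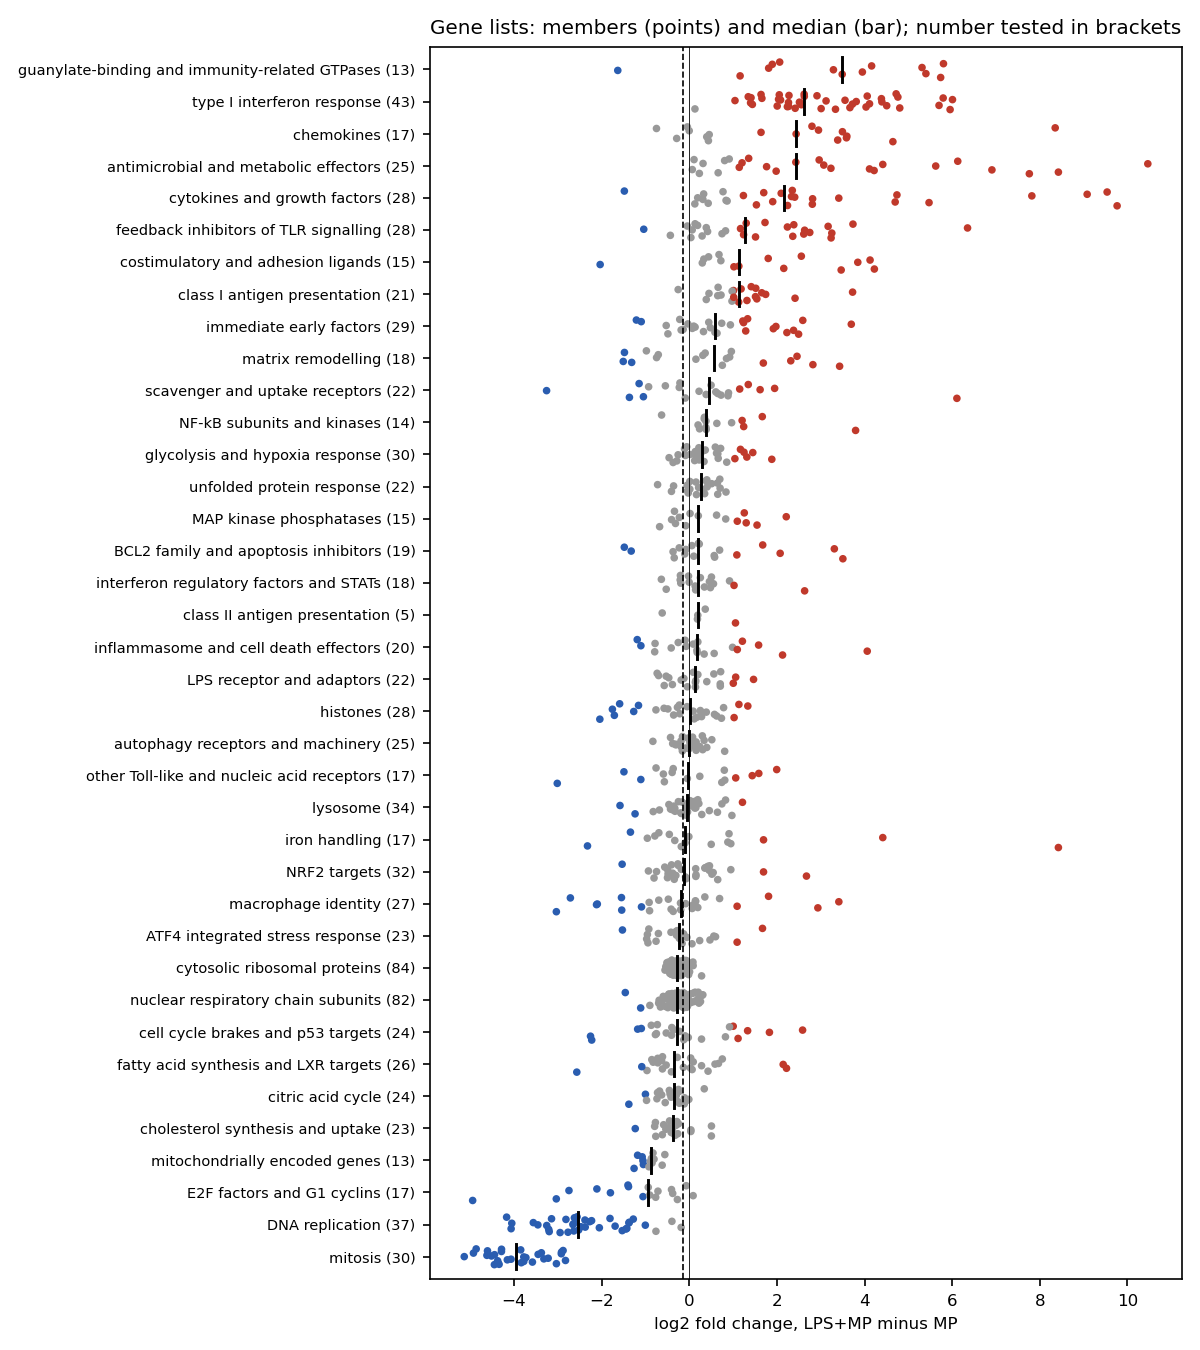
Each row is a gene list with the number of members tested in brackets, each point 1 member and the black bar the list's median, on an x axis of log2 fold change of LPS+MP over MP; red members rose and blue members fell, and the dashed line is the median of all genes (-0.14). The medians run from 3.49 for guanylate-binding and immunity-related GTPases to -3.96 for mitosis.

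Most genes of the LPS receptor list were not called, and those called rose. Of 23 genes listed for the LPS receptor and its adaptors, 22 were in the table and tested, 3 rose and 0 fell, with a median of 0.14. The share that rose was 13.6% of the list, against 5.71% of all genes tested. Without the size threshold 8 members were higher and 7 lower. The members that rose were Cd14, the co-receptor that presents LPS, and the kinase genes Irak2 and Ikbke. Cd14 was 477, 491 and 483 CPM in MP and 1320, 1340 and 1350 CPM in LPS+MP, 2.77-fold higher (1.47 ± 0.14). Irak2 rose by 1.06 ± 0.08, and Ikbke by 1.00 ± 0.08, at the edge of the threshold: the call was lost with quantile normalization (0.90) and when MP replicate 1 or 2 or LPS+MP replicate 2 or 3 was left out (0.96 to 1.00). Tlr4, the signalling receptor, read 47.9, 44.5 and 51.8 CPM in MP and 28.7, 28.7 and 28 CPM in LPS+MP. That difference of -0.73 ± 0.11 (limma adjusted p = 2.58e-05) was under the size threshold, and Ly96, which encodes MD-2, was at 9.18 ± 0.725 and 15.6 ± 1.57 CPM (0.71 ± 0.14), also not called.

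NF-kB genes rose in part: 4 of 14 tested members rose and 0 fell (median 0.38). Traf1, a signalling adaptor and known NF-kB target, went from 25, 21 and 22.4 CPM to 327, 344 and 316 CPM, 14.4-fold (3.80 ± 0.11). The subunit genes Rel (1.67 ± 0.13), Nfkb1 (1.24 ± 0.06) and Nfkb2 (1.21 ± 0.09) rose less. Of the feedback inhibitors, 28 of 29 listed genes were tested, 16 rose and 1 fell (median 1.27). Socs3, which blocks cytokine receptor signalling through STAT3, read 4.38, 4.69 and 4.57 CPM in MP and 422, 473 and 461 CPM in LPS+MP, a 99.4-fold rise (6.35 ± 0.12). Tnfaip3 encodes A20, an enzyme that edits ubiquitin chains on NF-kB signalling proteins, and rose from 9.18 ± 1.24 to 134 ± 3.47 CPM (3.74 ± 0.09). Il1rn, the interleukin 1 receptor antagonist (3.24 ± 0.09), Nfkbia, the inhibitor that holds NF-kB in the cytoplasm (2.75 ± 0.10), and Irak3, an inactive kinase that restrains the adaptor complex (2.63 ± 0.08), also rose. Sigirr, a decoy-like receptor of the family, was lower with LPS (-1.04 ± 0.14), from 6.66 ± 0.618 to 2.76 ± 0.686 CPM. Its call was lost under quantile normalization and median-ratio scaling and without MP replicate 3 or LPS+MP replicate 1.

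Cytokine genes rose in most of the list. Of 37 listed, 28 were tested, 19 rose and 1 fell (median 2.17). In this list 8 members were under 1 CPM in every MP and control library and passed the filter through the LPS groups, so the count is not one over all cytokines. Il1a, the other interleukin 1 gene, went from 1.88, 0.784 and 0.96 CPM to 1310, 1070 and 1140 CPM (9.08 ± 0.16). Il6, which drives the acute phase response, stood at 1.46, 0.982 and 0.406 CPM in MP and 421, 442 and 421 CPM in LPS+MP (7.82 ± 0.16). Tnf, the gene of tumour necrosis factor, was already expressed without LPS, at 131, 155 and 153 CPM, and reached 1100, 974 and 1010 CPM with it. That was a 7.03-fold rise (2.81 ± 0.09, limma adjusted p = 3.89e-13). Il10, an anti-inflammatory cytokine, remained low, at 0.0246, 0.419 and 0.101 CPM in MP and 5.7, 8.2 and 8.05 CPM in LPS+MP (2.81 ± 0.17). Lif, a cytokine of the interleukin 6 family, rose from 0.95 ± 0.416 to 51.6 ± 15.1 CPM (4.74 ± 0.26). Csf1, the macrophage growth factor, was at 55 ± 1.46 and 99.3 ± 4.94 CPM and missed the size threshold (0.84 ± 0.11). The fall was that of Igf1, insulin-like growth factor 1, from 75.6 ± 3.08 to 26.4 ± 1.41 CPM (-1.48 ± 0.10).

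**Figure D3:**
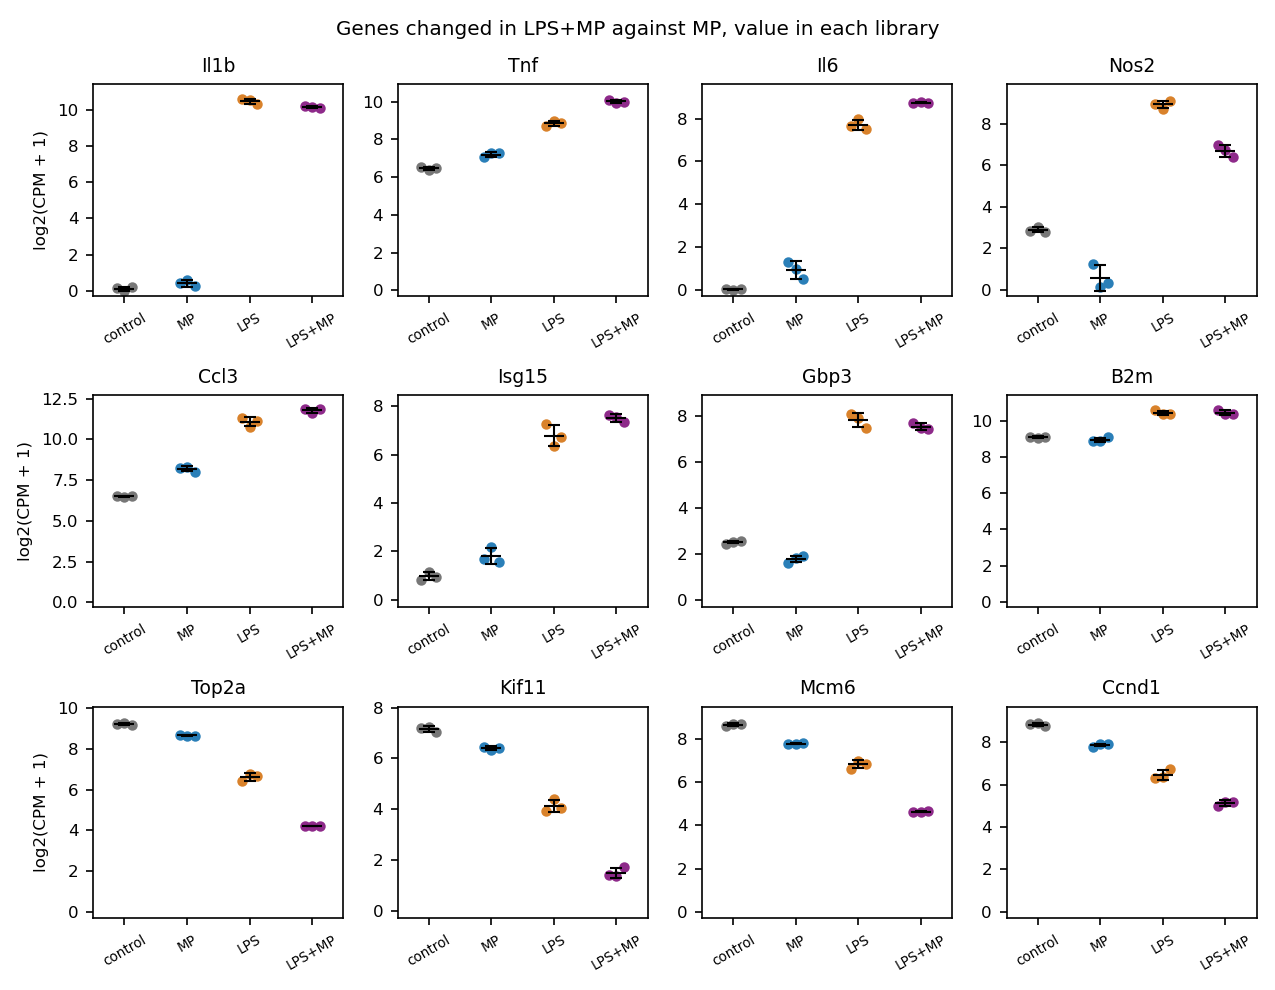
The 12 panels show log2(CPM + 1) in every library of the 4 groups for genes that changed between MP and LPS+MP; each point is a library and the bar is the mean ± SD of 3. Il1b, Il6 and Isg15 are near the floor in control and MP and high in both groups with LPS, Tnf is present throughout and higher with LPS, and Top2a, Kif11, Mcm6 and Ccnd1 are lower in LPS+MP than in the other 3 groups.

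Chemokine genes, which attract leukocytes, rose in 10 of 17 tested members (27 listed), and 0 fell (median 2.44). Of these members 2 were under 1 CPM in every MP and control library and passed the filter through the LPS groups. Ccl5, which attracts T cells and monocytes, went from 0.619, 1.62 and 0.758 CPM to 733, 602 and 586 CPM (8.35 ± 0.17). Cxcl2, a neutrophil attractant, was 225, 238 and 179 CPM in MP and 2790, 2200 and 2270 CPM in LPS+MP, 11.3-fold higher (3.50 ± 0.11). Ccl3, one of the macrophage inflammatory proteins, rose from 295 ± 33.6 to 3550 ± 357 CPM (3.59 ± 0.12). Ccl4, its close relative, rose by 2.44 ± 0.08, and Ccl7, a monocyte attractant, by 3.39 ± 0.12. Cxcl10, the interferon-induced attractant of T cells, read 1.88, 1.82 and 1.79 CPM in MP and 36.9, 34.8 and 28.5 CPM in LPS+MP (3.60 ± 0.15). Of the 7 that were not called, Ppbp, a platelet-type chemokine, was at 3.18 ± 0.648 and 3.21 ± 0.895 CPM, with overlapping libraries.

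The regions just upstream of Il6, Cxcl2 and Nfkbia are shown because each holds the letters of an NF-kB site and each gene rose. They are the 120 bases before the RefSeq transcript start on the gene's strand, 5′ to 3′ (RefSeq, GRCm38.p6), with matches on either strand to GGGA and TTCC, 2 bases apart, in capitals. Il6 lies at chr5:30012994-30013113 on the plus strand, Cxcl2 at chr5:90903779-90903898 on the plus strand with 2 overlapping matches, and Nfkbia at chr12:55492648-55492767 on the minus strand.
Il6: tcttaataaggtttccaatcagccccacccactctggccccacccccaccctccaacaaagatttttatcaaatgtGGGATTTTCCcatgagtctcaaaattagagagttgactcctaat
Cxcl2: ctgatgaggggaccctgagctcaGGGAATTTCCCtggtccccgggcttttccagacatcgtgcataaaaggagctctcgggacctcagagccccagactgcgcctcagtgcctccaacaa
Nfkbia: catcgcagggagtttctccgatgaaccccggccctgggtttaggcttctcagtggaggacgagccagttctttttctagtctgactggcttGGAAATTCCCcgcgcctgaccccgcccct
In windows from 250 bases before to 50 after the start, 3.2% of the promoters of genes that rose held this motif, against 1.3% of those that fell, 1.6% of those of all genes tested and 1.5% of all 32851 promoters of the table. It was in 3 of 11 promoters of the chemokine list (27.3%), 2 of 19 of the cytokine list (10.5%) and 2 of 30 of the feedback inhibitor list (6.7%). RefSeq promoters matched 510 of the 671 genes that rose and 726 of the 926 that fell. A match is a description of the letters and not a measured binding site.

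Effectors of the activated macrophage rose in 18 of 25 tested genes (31 listed), and 0 fell (median 2.43). Of these members 4 were under 1 CPM in every MP and control library and passed the filter through the LPS groups. Lcn2, which withholds iron-binding siderophores from bacteria, went from 4.38, 4.54 and 2.95 CPM to 1780, 1580 and 1690 CPM, 426-fold (8.42 ± 0.11). Irg1, which makes itaconate from a citric acid cycle intermediate, was 10.2, 11.3 and 10.2 CPM in MP and 2430, 2510 and 2560 CPM in LPS+MP, 237-fold higher (7.76 ± 0.12). Ptgs2, the inducible enzyme of prostaglandin synthesis, rose from 30.6, 24.3 and 20 CPM to 3430, 2890 and 2930 CPM (6.91 ± 0.12). Each of these genes was at 30.6 CPM or lower in every MP library, and the lowest LPS+MP value was the 1580 CPM of Lcn2. Nos2, inducible nitric oxide synthase, stood at 1.41, 0.0965 and 0.254 CPM in MP and 124, 107 and 82.6 CPM in LPS+MP (6.13 ± 0.23). Slc7a2, an importer of its substrate arginine, rose 52.2-fold (5.62 ± 0.11), while Arg1, the arginase that competes for arginine, read 0.4 ± 0.381 and 0.517 ± 0.661 CPM and did not differ beyond its spread (0.07 ± 0.26). Serpinb2, an inhibitor of plasminogen activators, was 0.0248, 0 and 3.16e-05 CPM in MP and 162, 109 and 117 CPM in LPS+MP; with 1 library listed at 0 no ratio is given.

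In the type I interferon list 42 of 43 tested members rose, against 5.71% of all genes, 0 fell, and the median was 2.62. Of these members 7 were under 1 CPM in every MP and control library. Irf7, the regulator that amplifies interferon production, went from 8.81, 8.59 and 7.75 CPM to 667, 618 and 528 CPM, 72.1-fold (6.01 ± 0.12). Oasl1, of the oligoadenylate synthetase-like family, was 7.06, 8.54 and 7.7 CPM in MP and 539, 553 and 530 CPM in LPS+MP (5.95 ± 0.10). Mx2, an antiviral GTPase, rose from 0.339 ± 0.114 to 34.4 ± 3.78 CPM (4.72 ± 0.14). Isg15, a ubiquitin-like modifier, read 2.2, 3.54 and 1.94 CPM in MP and 199, 185 and 160 CPM in LPS+MP (5.70 ± 0.20). Ifit1, which binds foreign RNA ends, read 1.91, 2.63 and 1.24 CPM and 67.1, 58 and 52.6 CPM (4.39 ± 0.20). All 5 were far apart between the groups. Oasl2 (4.51 ± 0.10) and Oas3 (2.91 ± 0.08) rose too, and Ifitm3, a membrane protein that blocks viral entry, was the member not called, at 643 ± 33.1 and 703 ± 14 CPM. The gene of interferon beta, Ifnb1, was not among the genes of the table.

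Guanylate-binding proteins and immunity-related GTPases, which attack vacuoles that hold microbes, rose in 12 of 13 tested members (17 listed), with a median of 3.49. Here 5 members were under 1 CPM in every MP and control library. Gbp3 went from 2.08, 2.53 and 2.75 CPM to 207, 173 and 169 CPM, 74.7-fold (5.74 ± 0.14). Gbp7 (5.80 ± 0.19), Gbp5 (5.40 ± 0.24) and Gbp2 (5.31 ± 0.18) rose as well. Gbp8 did the reverse: it was 29.6, 29.6 and 29.8 CPM in MP and 11.2, 8.26 and 7.55 CPM in LPS+MP, 3.29-fold lower (-1.63 ± 0.22). Gbp genes are close relatives in clusters, so reads could have been divided between them in counting. Of 18 tested interferon regulatory factors, STATs and their receptors and kinases, 2 rose and 0 fell (median 0.20). The share that rose was 11.1%, against 5.71% of all genes. The 2 that rose were the kinase gene Jak2, from 54.2 ± 6.22 to 340 ± 6.06 CPM (2.63 ± 0.08), and Irf1. The count was 1 without MP replicate 1 or LPS+MP replicate 2.

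Upstream regions of Isg15, Ifit1 and Gbp3 are shown because they hold the letters of the interferon-stimulated response element. Each line is the 120 bases before a RefSeq start (GRCm38.p6), with matches on either strand to a pair of GAAA blocks, 2 bases apart, in capitals (TTTC blocks where the match lies on the opposite strand). Isg15 lies at chr4:156200819-156200938 on the minus strand, Ifit1 at chr19:34640769-34640888 on the plus strand and Gbp3 at chr3:142559924-142560043 on the plus strand.
Isg15: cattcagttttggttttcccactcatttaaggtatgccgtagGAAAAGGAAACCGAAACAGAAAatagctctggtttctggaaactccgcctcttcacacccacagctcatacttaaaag
Ifit1: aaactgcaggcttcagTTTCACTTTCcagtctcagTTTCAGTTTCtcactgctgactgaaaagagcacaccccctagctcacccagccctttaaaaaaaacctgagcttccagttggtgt
Gbp3: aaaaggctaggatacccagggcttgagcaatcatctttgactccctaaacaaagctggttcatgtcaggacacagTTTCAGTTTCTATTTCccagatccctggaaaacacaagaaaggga
The Isg15 region held 3 overlapping matches, the Ifit1 region 2 and the Gbp3 region 2. A second Gbp3 start in the table had 0 matches in its 120 bases. In the windows of 250 bases before to 50 after the start, the letters were found in 16 of 36 promoters of the interferon list (44.4%) and 8 of 9 of the GTPase list (88.9%). These promoters matched 32 of the 43 interferon genes and 8 of the 13 GTPase genes. The letters stood in 11.1% of the promoters of genes that rose, 3.4% of those that fell and 3.3% of those of all genes tested. Here too a match describes letters and not a measured binding site.

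Class I antigen presentation, the display of peptides to cytotoxic T cells, rose in 13 of 21 tested genes, with 0 falls and a median of 1.13. H2-T23, a non-classical class I gene, went from 4.93, 4.91 and 4.89 CPM to 91.9, 73.5 and 68.2 CPM, 15.9-fold (3.73 ± 0.13). Tap1, the peptide transporter, rose from 54.2 ± 1.02 to 294 ± 24.4 CPM (2.41 ± 0.11), and B2m, the shared light chain, from 500 ± 42.6 to 1430 ± 128 CPM (1.51 ± 0.09). Class I genes are near-identical copies of each other, and their separate values carry that uncertainty. For class II, 9 genes were listed and 5 tested, with 20.0% risen, against 5.71% of all genes. Cd74, the invariant chain, rose from 567 ± 15.9 to 1180 ± 66.5 CPM (1.05 ± 0.10) and was not called with quantile normalization (0.92), and the other 4 did not pass.

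Costimulatory and adhesion ligands rose in 9 of 15 tested genes (23 listed) and fell in 1 (median 1.13). Tnfrsf9, the costimulatory receptor 4-1BB, was 5.05, 5.79 and 3.96 CPM in MP and 111, 110 and 106 CPM in LPS+MP, 22.1-fold higher (4.22 ± 0.11). Ccrl2, a receptor that concentrates chemerin, rose 18.3-fold (4.13 ± 0.12). Cd274 encodes PD-L1, which restrains T cells, and went from 69.6, 55.6 and 44.6 CPM to 622, 627 and 627 CPM (3.47 ± 0.11). Cd40, a receptor for T cell help, rose by 2.56 ± 0.09. The fall was that of Havcr2, the gene of TIM-3, from 18.8 ± 5.22 to 3.76 ± 0.702 CPM (-2.03 ± 0.21).

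Immediate early transcription factors were split, with 11 of 29 risen and 2 fallen (median 0.59). Nr4a1, an orphan nuclear receptor, was 12.3, 9.94 and 7.17 CPM in MP and 137, 136 and 136 CPM in LPS+MP, 13.9-fold higher (3.70 ± 0.21). Csrnp1 (2.59 ± 0.14), Ier3 (2.49 ± 0.11) and Maff (2.23 ± 0.13) rose as well. Klf4, a Kruppel-like factor, fell from 51.3 ± 4.94 to 21.6 ± 1.93 CPM (-1.21 ± 0.18), and Egr3 fell by 1.10 ± 0.20 from a low 3.56 ± 0.953 CPM, a call that was lost with quantile normalization, with a minimum of 5 CPM and without MP replicate 1 or LPS+MP replicate 1. Klf2, which keeps macrophages quiescent, was at 33.2, 40.6 and 35.3 CPM in MP and 27.9, 26.6 and 22.6 CPM in LPS+MP and was not called (-0.49 ± 0.11). MAP kinase phosphatases, which switch the kinases off, rose in 5 of 15 and fell in 0 (median 0.21). The share that rose was 33.3%, against 5.71% of all genes. Dusp5 went from 26.5 ± 2.19 to 126 ± 4.18 CPM (2.21 ± 0.20) and Dusp1 from 64.4 ± 8.03 to 159 ± 5.23 CPM (1.30 ± 0.11).

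Genes of inflammasomes and lytic cell death rose in 5 and fell in 2 of 20 tested members (median 0.18). That is 35.0% called, against 13.6% of all genes. Nlrp3, the inflammasome sensor, was 97.2, 99.5 and 93.8 CPM in MP and 428, 427 and 426 CPM in LPS+MP, 4.41-fold higher (2.13 ± 0.06). Casp4, the caspase-11 gene that senses LPS in the cytosol, rose from 23 ± 1.32 to 70.8 ± 3.89 CPM (1.58 ± 0.10), and Mlkl, the executioner of necroptosis, from 50.3 ± 4.51 to 118 ± 9.74 CPM (1.21 ± 0.08). In the BCL2 family and its partners 5 rose and 2 fell of 19 (36.8% called). Bcl2a1a, an inducible survival gene with near-identical copies, rose by 3.31 ± 0.12, and Bcl2 itself fell from 96.3, 89.9 and 78.2 CPM to 30.4, 29.5 and 32.5 CPM (-1.48 ± 0.10).

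In the mitosis list, chosen with earlier results known, 30 of 30 tested members fell, against 7.88% of all genes. Their median was -3.96, with a range from -2.83 to -5.14. Their summed level was 3180 to 3280 CPM in MP and 195 to 218 CPM in LPS+MP. Top2a, the topoisomerase that untangles chromosomes, went from 417, 400 and 403 CPM to 17.6, 17.9 and 17.6 CPM, 23-fold lower (-4.45 ± 0.08, limma adjusted p = 1.11e-15). Ccna2, cyclin A2, was 120, 111 and 112 CPM in MP and 2.8, 2.74 and 3.34 CPM in LPS+MP, 38.6-fold lower (-4.86 ± 0.10). The cyclin B genes Ccnb1 (-4.36 ± 0.10) and Ccnb2 (-4.61 ± 0.12), which start mitosis, and the kinase genes Plk1 (-4.62 ± 0.13) and Aurkb (-4.45 ± 0.11), which run it, were down by as much. Cdc20, the activator of the complex that ends mitosis, fell from 78.8 ± 4.33 to 4.84 ± 0.654 CPM (-3.78 ± 0.09).

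Regions of 60 bases before the RefSeq starts of Top2a, Kif11 and Cdc20 are shown because they hold the letters of the cell cycle genes homology region, a short element of promoters active in G2 and mitosis. They come from RefSeq (GRCm38.p6), with TTTGAA, or TTCAAA where it lies on the opposite strand, in capitals. Top2a is at chr11:99024190-99024249 on the minus strand, Kif11 at chr19:37376322-37376381 on the plus strand and Cdc20 at chr4:118437344-118437403 on the minus strand.
Top2a: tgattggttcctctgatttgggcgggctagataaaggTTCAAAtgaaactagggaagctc
Kif11: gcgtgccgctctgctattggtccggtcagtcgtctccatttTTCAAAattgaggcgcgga
Cdc20: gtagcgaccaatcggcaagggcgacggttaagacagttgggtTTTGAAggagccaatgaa
Over windows from 250 bases before to 50 after the start, the letters were found in 19 of 26 promoters of the mitosis list (73.1%). The share was 22.2% for genes that fell, 14.0% for genes that rose, 12.2% for all genes tested and 17.9% for all promoters of the table.

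In the DNA replication list 34 of 37 tested members fell, against 7.88% of all genes, with 0 risen and a median of -2.53. Mcm6, a subunit of the replicative helicase, went from 216, 216 and 223 CPM to 23.6, 23.7 and 24.2 CPM, 9.17-fold lower (-3.14 ± 0.08). Mcm5, of the same helicase, was 197 ± 22.2 and 17 ± 1.75 CPM (-3.46 ± 0.09), and Mcm10, which helps to start it, fell by 3.56 ± 0.09. Lig1, the ligase that joins new fragments, fell from 95.6 ± 6.51 to 11.5 ± 0.293 CPM (-2.95 ± 0.07). The members that did not pass were Tyms, Cdt1 and Pola2. Among E2F factors and G1 cyclins 8 of 17 fell and 0 rose (median -0.94), with Ccnd1, cyclin D1, at 222, 239 and 240 CPM in MP and 30.5, 35.7 and 36 CPM in LPS+MP, 6.86-fold lower (-2.75 ± 0.10). Cell cycle brakes and p53 targets were split, 5 up and 4 down of 24: Gadd45b, a stress-induced growth arrest gene, rose from 10.9 to 70.5 CPM on average (2.59 ± 0.11), and Rbl1, a relative of the retinoblastoma gene, fell from 113 to 23.3 CPM (-2.23 ± 0.08). Of 28 histone genes 6 fell and 3 rose. The replication-independent variant H2afz fell from 356 ± 61.3 to 104 ± 2.85 CPM (-1.75 ± 0.11), and with a minimum of 5 CPM 0 histone genes rose.

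The upstream regions of Mcm6 and E2f8 are shown because they carry the E2F letters TTGGCGC, in capitals, in the 120 bases before the RefSeq start (GRCm38.p6). Mcm6 is at chr1:128359706-128359825 and E2f8 at chr7:48881597-48881716, both on the minus strand.
Mcm6: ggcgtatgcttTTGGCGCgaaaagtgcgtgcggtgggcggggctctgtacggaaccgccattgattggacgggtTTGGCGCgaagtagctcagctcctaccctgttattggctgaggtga
E2f8: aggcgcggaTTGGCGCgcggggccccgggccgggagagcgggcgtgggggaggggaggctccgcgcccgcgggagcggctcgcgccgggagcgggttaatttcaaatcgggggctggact
These letters, on either strand, were in 7 of 33 promoters of the replication list (21.2%), in 6.3% of the promoters of genes that fell, 2.2% of those that rose and 4.2% of those of all genes tested. The AP-1 letters TGANTCA were searched in the same way and stood in 12.8% of promoters of genes that rose, 4.6% of those that fell and 5.2% of those of all genes tested.

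Glycolysis, sugar uptake and hypoxia-response genes rose in 6 of 30 tested members, 0 fell and 24 were not called (median 0.29). That is 20.0% risen, against 5.71% of all genes. Slc2a1, the glucose transporter GLUT1, was 208, 209 and 203 CPM in MP and 766, 748 and 781 CPM in LPS+MP, 3.70-fold higher (1.88 ± 0.09). Hk2, hexokinase 2, went from 95.7 ± 5.46 to 263 ± 6.53 CPM (1.45 ± 0.07), and Bnip3, a hypoxia-induced mitophagy gene, from 43.2 ± 3.62 to 109 ± 0.963 CPM (1.31 ± 0.14). In the citric acid cycle 18 of 24 genes were lower and 1 higher without the size threshold (median -0.35), where 36.6% of all genes were lower. By the call rule 2 fell and 0 rose (8.33%, near the 7.88% of all genes that fell). Idh2, mitochondrial isocitrate dehydrogenase, went from 118, 124 and 123 CPM to 46.5, 47.7 and 44.3 CPM (-1.38 ± 0.06), and the count was 1 under quantile normalization and median-ratio scaling. Nuclear subunits of the respiratory chain had 2 falls and 0 rises among 82 (median -0.28), or 2.44%, under the 7.88% of all genes. Cox6a2, a muscle-type subunit of complex IV, was at 16.9 ± 1.17 and 5.53 ± 0.731 CPM (-1.46 ± 0.15). Of 13 mitochondrially encoded genes 5 fell and 0 rose (median -0.88), and the count was 2 under median-ratio scaling and 3 without LPS+MP replicate 1 or without LPS+MP replicate 2. In this group mt-Cytb, cytochrome b, read 6270, 6070 and 6660 CPM in MP and 2450, 2460 and 3050 CPM in LPS+MP (-1.26 ± 0.12).

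Lipid genes were called at a share near that of all genes. Acsl1, which activates fatty acids, rose from 63 ± 2.53 to 297 ± 8.66 CPM (2.22 ± 0.07), and Lpl, lipoprotein lipase, fell from 145, 140 and 171 CPM to 26.3, 20.2 and 28.3 CPM (-2.57 ± 0.11), in a list of 26 tested members with 2 risen and 2 fallen (15.4%, against 13.6% of all genes). Abca1, the cholesterol exporter, was at 317 ± 25.9 and 503 ± 34.7 CPM and missed the size threshold (0.67 ± 0.09). In cholesterol synthesis and uptake 1 of 23 fell (4.35%, under the share of all genes), Tm7sf2 (-1.23 ± 0.11), a sterol reductase. Cytosolic ribosomal protein genes (84 tested), the unfolded protein response (22) and autophagy genes (25) had 0 calls in either direction under limma. Their medians were -0.27, 0.26 and 0.00 beside the -0.14 of all genes.

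Of 32 NRF2 targets, genes of the oxidative stress response, 2 rose and 1 fell (9.38%, against 13.6% of all genes). Slc7a11, the cystine importer, was 47.7, 49.9 and 46.5 CPM in MP and 324, 277 and 339 CPM in LPS+MP, 6.52-fold higher (2.67 ± 0.09). Hmox1, heme oxygenase 1, rose from 252 ± 17 to 819 ± 39.7 CPM (1.69 ± 0.09). Sqstm1, the p62 autophagy receptor, was at 1430 ± 54.2 and 2240 ± 121 CPM and not called (0.65 ± 0.07). Among 23 genes of the ATF4 stress response 2 rose and 1 fell (13%, near the share of all genes), with Ddit4, an inhibitor of mTOR signalling, up by 1.67 ± 0.22 and Shmt2, of mitochondrial one-carbon metabolism, down (-1.53 ± 0.07). Cth, which makes cysteine, was at 193, 194 and 200 CPM in MP and 207, 198 and 208 CPM in LPS+MP and was not called (0.06 ± 0.07, limma adjusted p = 0.494).

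Macrophage surface and identity genes were divided, with 4 risen and 7 fallen among 27 tested (40.7% called, against 13.6% of all genes). Emr1, F4/80, went from 74.9, 71.1 and 68.5 CPM to 763, 768 and 782 CPM, 10.8-fold (3.41 ± 0.07), and Siglec1, the sialic acid receptor CD169, rose by 2.93 ± 0.12. Cx3cr1, the fractalkine receptor, was 14.1, 15.4 and 15.8 CPM in MP and 0.881, 0.93 and 1.08 CPM in LPS+MP, 15.6-fold lower (-3.03 ± 0.11). Trem2, a lipid-sensing receptor, fell from 384 ± 33.8 to 89.5 ± 14.6 CPM (-2.10 ± 0.12), and Lyz2, lysozyme, from 2910, 2670 and 2990 CPM to 1090, 913 and 947 CPM (-1.54 ± 0.09). Csf1r, the receptor for Csf1, was at 777 ± 24.2 and 820 ± 58.2 CPM, and Cd68 at 887 ± 20 and 837 ± 20.4 CPM; neither was called. The genes of the lineage thus included rises, falls and genes that did not pass.

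Receptors for uptake and for microbes were divided in the same way. Of 22 scavenger and uptake receptors 5 rose and 4 fell (40.9% called, against 13.6% of all genes). Marco, which binds bacteria and particles, was 12.1, 15.4 and 17.1 CPM in MP and 980, 1080 and 1200 CPM in LPS+MP, 73.1-fold higher (6.11 ± 0.11). Clec4e, the receptor Mincle, rose from 644 ± 51.7 to 2480 ± 75.9 CPM (1.95 ± 0.10), and Mrc1, the mannose receptor, fell from 14.1 ± 0.848 to 0.607 ± 0.339 CPM (-3.26 ± 0.20). Among 17 other Toll-like and nucleic acid receptors 4 rose and 3 fell (41.2% called). Tlr2, the receptor for lipoproteins, rose from 200 ± 12.7 to 603 ± 46.4 CPM (1.59 ± 0.10), its partner Tlr1 by 1.44 ± 0.10 and Nod2, which senses peptidoglycan, by 2.00 ± 0.09. Tlr5, the flagellin receptor, fell from 9.56, 8.74 and 8.55 CPM to 0.115, 0.239 and 0.351 CPM (-3.01 ± 0.15).

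Matrix remodelling genes rose in 5 and fell in 3 of 18 tested members, and iron genes rose in 3 and fell in 2 of 17. The shares called were 44.4% and 29.4%, against 13.6% of all genes. Mmp13, collagenase 3, went from 31.4 ± 1.38 to 229 ± 30.3 CPM (2.82 ± 0.15). Thbs1, the matrix protein thrombospondin 1, was 1.61, 0.588 and 0.33 CPM in MP and 15.4, 19.8 and 19.3 CPM in LPS+MP (3.43 ± 0.20). Cp, the ferroxidase ceruloplasmin, rose 26.2-fold (4.42 ± 0.12). Slc40a1, the iron exporter ferroportin, fell from 222, 229 and 225 CPM to 45.5, 45.8 and 41.6 CPM, 5.09-fold lower (-2.32 ± 0.11). With median-ratio scaling 6 iron genes rose.

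The LPS response of MP-treated cells was then set beside that of cells without MP, the comparison of LPS with control, which shares no library with it. LPS alone raised 975 genes (8.3% of those tested) and lowered 945 (8.05%), and without the size threshold 3119 (26.6%) were higher and 4178 (35.6%) lower. Of the 671 genes that rose with LPS in MP-treated cells 576 also rose without MP, which is 85.8% of the first list and 59.1% of the second. Of the 926 that fell, 654 also fell without MP, 70.6% and 69.2% of the lists. Another 95 rises and 270 falls were called in MP-treated cells and not without MP, and 397 rises and 291 falls only the other way round. The changes had a Pearson r of 0.874 and a Spearman rho of 0.765 over 11745 genes, given as a description of genes that share libraries and scaling. Without LPS replicate 2, 590 rises and 654 falls were called in both settings, 80 rises and 270 falls with MP alone, and 412 rises and 233 falls without MP alone, with r 0.887 and rho 0.791. Opposite calls were made for Gbp8, at -1.63 with MP and 1.55 without, and for Extl1, of the exostosin-like family. Extl1 was 6.76, 4.05 and 3.79 CPM in MP and 1.22, 1.78 and 1.89 CPM in LPS+MP (-1.13 ± 0.19) and rose by 1.31 with LPS alone, from 0.407 to 2.5 CPM on average. Without LPS replicate 2 the rises with LPS alone were 1.23 for Gbp8 and 1.22 for Extl1. Its fall was not called with quantile normalization (-0.96) or without MP replicate 1 (-0.91).

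Whether the responses differed was tested with an interaction, the change of LPS+MP over MP minus the change of LPS over control. It was called in 552 genes, 4.7% of those tested: the change was more positive with MP in 120 (1.02%) and more negative in 432 (3.68%). Without the size threshold it was higher in 757 (6.45%) and lower in 1826 (15.5%). Without LPS replicate 2 the counts were 98 and 433, and 454 of the 552 were called again. Quantile normalization gave 193 higher and 306 lower, and median-ratio scaling 144 and 390, so the excess of lower interactions was smaller but remained. The interaction was called in a part of the genes called in 1 setting only. Of the 95 rises called in MP-treated cells alone, 19 had a higher interaction and 76 were not called, and of the 270 such falls 36 had a lower interaction and 234 were not called. Of the 397 rises called without MP alone, 120 had a lower interaction and 277 were not called, and of the 291 such falls 42 had a higher interaction and 249 were not called.

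The lists of inflammatory genes held interaction calls as well, where 1.02% of all genes tested were higher and 3.68% lower. Of 25 effectors 7 were lower and 0 higher, of 17 chemokines 4 were lower and 1 higher, and of 28 cytokines and growth factors 3 were lower and 4 higher. Without LPS replicate 2 the effectors had 8 lower, the chemokines 5 lower and 1 higher, and the cytokines 3 lower and 4 higher. In the interferon list 3 of 43 genes had a lower interaction and 0 a higher one, and 2 were lower without that library. Without the size threshold 14 of the 43 were lower and 1 higher, where 15.5% of all genes tested were lower. The list's median interaction was -0.34, beside -0.08 for all genes. Lcn2 (-1.82 ± 0.15, and -1.87 without LPS replicate 2), Ptgs2 (-1.19, and -1.17) and Cxcl10 (-1.50, and -1.43) were among the genes with a smaller log2 rise when MP were present. The mean with LPS alone was 1420 CPM for Lcn2 and 1630 CPM for Ptgs2, below every LPS+MP library given above. For Cxcl10 it was 44.9 CPM, above every LPS+MP library. For the genes called in the interaction and given below, leaving out LPS replicate 2 moved the mean of the LPS group by -25.8% (Gbp8) to 22.5% (Lif). The order of the LPS and LPS+MP means changed for Ifit1 only, whose LPS mean was 60.9 CPM and then 58.9 CPM.

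**Figure D4:**
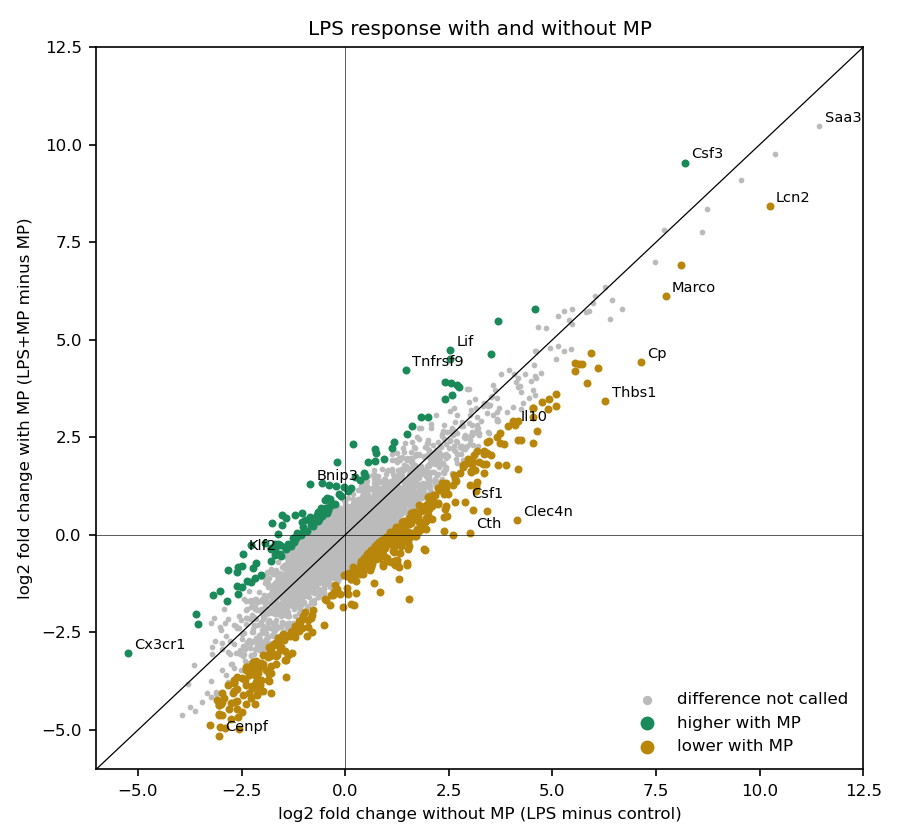
Each point is a tested gene, with its log2 fold change for LPS over control on the x axis and for LPS+MP over MP on the y axis; the diagonal marks equal changes. Green points had a higher change with MP and ochre points a lower one by the interaction test, and the ochre cloud at lower left holds cell cycle genes such as Cenpf, which fell by 5.14 with MP.

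Among cell cycle genes the interaction was lower, a larger fall with MP, in 16 of 30 mitosis genes and 14 of 37 replication genes, and higher in 0. Without LPS replicate 2 it was lower in 17 and 10 of them. Top2a averaged 600 CPM in control, 407 in MP, 97.7 in LPS and 17.7 in LPS+MP, so that its LPS change was -4.45 with MP and -2.61 without (interaction -1.84 ± 0.11, limma adjusted p = 1.03e-07, and -1.76 without LPS replicate 2). Kif11 averaged 142, 84.3, 16.7 and 1.82 CPM in the same order (interaction -1.90 ± 0.18, and -1.77 without that library) and Mcm6 407, 218, 113 and 23.8 CPM (-1.29 ± 0.12, and -1.21). The mean of all 3 was lower in MP than in control and lowest with both agents.

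Of the glycolysis, sugar uptake and hypoxia genes 7 of 30 were higher in the interaction and 1 was lower, with or without LPS replicate 2. Values without that library follow each interaction. Slc2a1 averaged 376 CPM in control, 207 in MP, 550 in LPS and 765 in LPS+MP (interaction 1.35 ± 0.13, then 1.22). Bnip3 stood at 303, 43.2, 173 and 109 CPM: LPS raised it in MP-treated cells, while the difference without MP was -0.84 (interaction 2.15 ± 0.19, then 2.34). For Tnfrsf9 the means were 89.4, 4.94, 249 and 109 CPM (interaction 2.76 ± 0.15, limma adjusted p = 5.94e-08, then 2.75). The mean of each was lower in MP than in control, and for Bnip3 and Tnfrsf9 the mean with both agents was under that with LPS alone. Lif (0.362, 0.95, 7.24 and 51.6 CPM) and Csf3 (0.0448, 0.107, 306 and 822 CPM) had higher interactions of 2.20 ± 0.37 (then 1.87) and 1.35 ± 0.15 (then 1.24). Their means were higher with both agents than with LPS alone. The interaction call of Csf3 was lost with a pseudocount of 0.1. Klf2, at 28.4, 36.4, 4.27 and 25.7 CPM, fell with LPS alone and was not called in MP-treated cells (interaction 1.99 ± 0.16, then 1.98). Cx3cr1 fell in both settings, to 0.985 CPM without MP and 0.964 with it, from 74.2 in control and 15.1 in MP (interaction 2.21 ± 0.16, then 2.21).

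**Figure D5:**
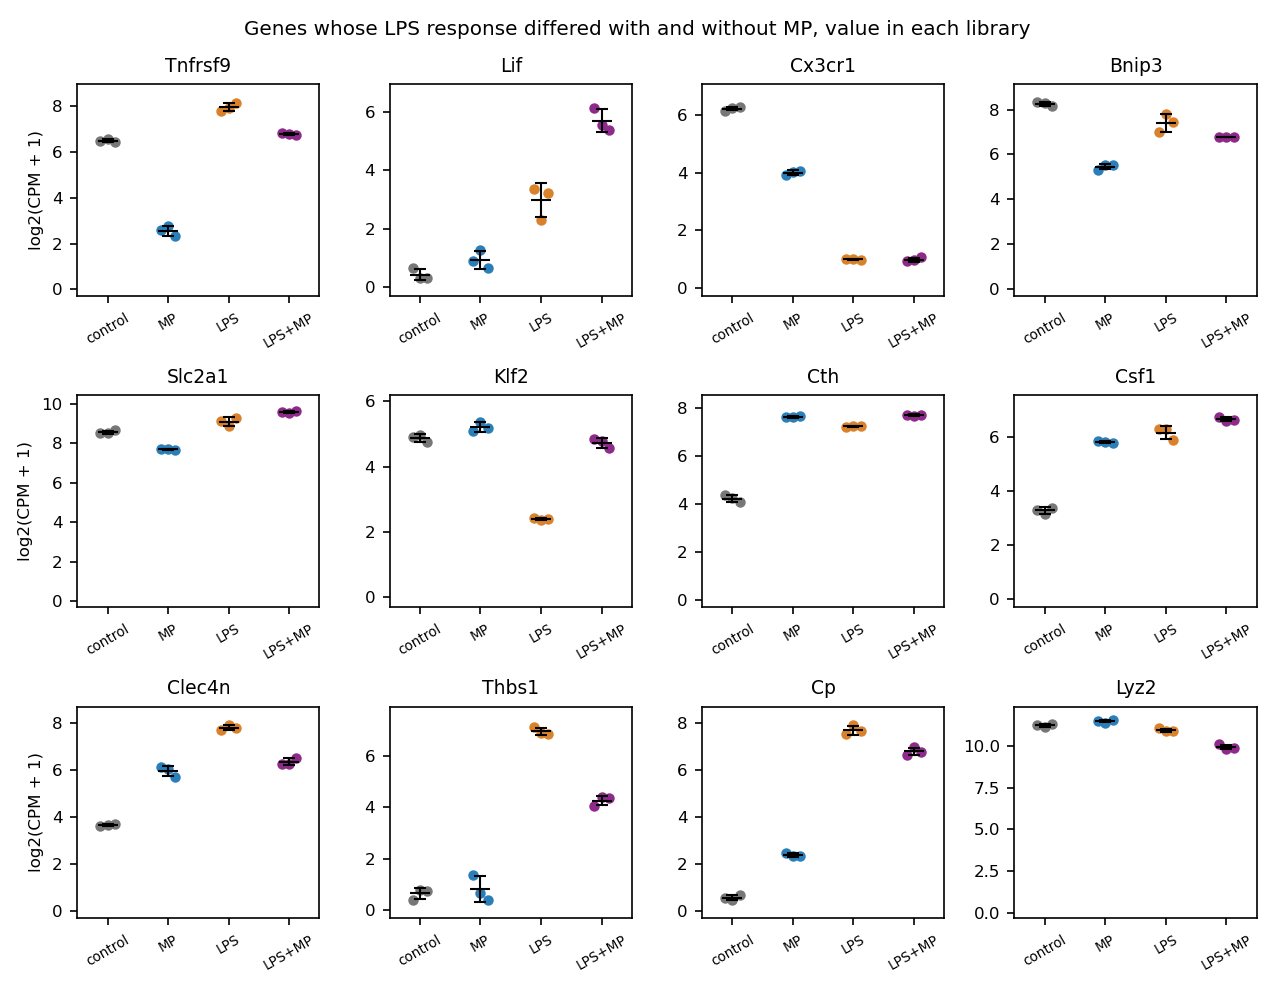
Panels show log2(CPM + 1) in each of the 12 libraries, by group, for 12 genes called in the interaction, with the mean ± SD of 3 libraries. Tnfrsf9 and Bnip3 are lower in MP than in control and higher in LPS+MP than in MP, Cth and Csf1 are higher in MP than in control, and Klf2 is low in the LPS group only.

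A lower interaction was also called in genes that LPS raised in the absence of MP, and values without LPS replicate 2 again follow each interaction. Cth averaged 17.7, 196, 150 and 204 CPM and Csf1 8.72, 55, 71.1 and 99.3 CPM (interactions -2.95 ± 0.10, then -2.95, and -2.04 ± 0.15, then -1.97), with means in MP well above those in control. Clec4n, the receptor Dectin-2, stood at 11.7, 63, 224 and 82.2 CPM, a change of 4.14 without MP and 0.38 with it (interaction -3.76 ± 0.15, then -3.70). Thbs1 averaged 0.589, 0.843, 122 and 18.2 CPM (-2.85 ± 0.29, then -2.88), Cp 0.49, 4.27, 209 and 112 CPM (-2.72 ± 0.17, then -2.61) and Marco 8.78, 14.9, 2060 and 1090 CPM (-1.62 ± 0.16, then -1.59). The means of these 4 genes with both agents were below those with LPS alone. Il10 did likewise, at 1.11, 0.182, 34.7 and 7.32 CPM (-1.27 ± 0.24, then -1.19), but with a pseudocount of 0.1 its interaction was 0.09. Tnf (0.42 ± 0.12, then 0.48), Il1b (-0.61 ± 0.15, then -0.59) and Il6 (0.14 ± 0.23, then 0.27) were not called in the interaction. With the pseudocount of 0.1 that of Il6 was -2.02 (limma adjusted p = 0.00243). Nos2, at 6.48, 0.588, 489 and 105 CPM, was not called either (0.10 ± 0.32, then 0.00).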

How the data were processed

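RNA sequencing values of 12 libraries of J774A.1 cells were used, 3 per group, grouped by the sample titles. The tools named per the submitters' processing notes, in no stated order, were TopHat2 2.1.1, HTSeq, edgeR, DESeq2, Trimmomatic 0.36 and FastQC 11.5, and a directional library kit was used per the labels' protocols. The strand setting of counting is not given in the sources used here. The columns deposited by the authors are headed RPKM but were read as CPM: each sums to between 998867 and 999273. The deposited logCPM column, read as a log2 mean, differs from the log2 mean of the columns with an SD of 0.20, and of 0.99 if multiplied by transcript length. Low values came out as whole multiples of a step in 2 libraries (share 1 in MP replicate 1 and LPS replicate 3, 0.152 to 0.876 in the others), so no count model was fitted. The build is not named. Of 11655 transcripts matched to GENCODE M21 (GRCm38), 11651 overlapped the same transcript and 4410 (37.8%) had identical coordinates. Gene coordinates are the table's own.

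Values were analysed as log2(CPM + 1), a scale planned for RPKM, with limma 3.58.1 (R 4.3.3): 4 group means over all 12 libraries, a variance trend and Benjamini-Hochberg adjustment over 11745 genes. The procedure was tested on simulated data. Gene lists are described by counts and medians, with no set test. Replicate numbers were checked for pairing: residuals of same-numbered libraries had a median correlation of 0.018 in 18 pairs (-0.247 to 0.158), so no block was used. Alternatives were a pseudocount of 0.1, other filters and scalings, a block, no trend, the compared groups alone, no size threshold and leaving out each library.

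The members and gene lists were chosen with earlier results of these data known. The genes named are the 12 largest rises and falls among called genes with no overlap of libraries, for each list up to 5 called members by adjusted p (where none was called, the 2 most abundant), the 10 most positive and negative called interactions, and 14 genes that could be named anywhere (Tnf, Il1b, Il6, Il10, Nos2, Cxcl10, Arg1, Hmox1, Tlr4, Ifnb1, Abca1, Cx3cr1, Csf1 and Sqstm1). Not all are described. Ly96, Sigirr, Igf1, Isg15, Ifit1, Ifitm3, Havcr2, Klf4, Egr3, Tyms, Cdt1, Pola2, Csf1r, Cd68, Pf4 and Pdgfra were named outside this rule, after their values were seen.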

Additional observations from a re-analysis of the deposited data

Results flagged for a closer look

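The LPS response differed between cells with and without MP in 552 genes by the interaction test of limma, and these differences are listed because they passed it. All estimates below are log2 differences of the response with MP minus the response without, over 3 libraries per group. Cytokines, chemokines and effectors had estimates of 2.20 (Lif), 1.35 (Csf3), -1.27 (Il10), -2.04 (Csf1), -1.30 (Il1rn), -1.50 (Cxcl10), -2.61 (Ppbp), -1.82 (Lcn2), -1.19 (Ptgs2) and -2.72 (Cp). Interferon-induced genes had -1.25 (Ifit1) and -3.19 (Gbp8). Surface receptors of immune regulation had 2.76 (Tnfrsf9) and -1.45 (Cd274). Transcription factors and phosphatases had 1.10 (Csrnp1), 1.09 (Maff), 1.99 (Klf2), -1.27 (Egr3), 2.06 (Id3) and 1.50 (Dusp5), and the survival gene Bcl2a1a had -1.78.

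In the cell cycle the estimates were -2.10 (Cenpf), -2.41 (Casc5), -1.90 (Kif11), -1.60 (Ccna2), -1.58 (Plk1), -1.84 (Top2a), -1.32 (Ccnb1), -1.66 (Aurkb), -1.18 (Mcm5), -1.29 (Mcm6), -1.72 (Mcm10) and -2.03 (E2f8). Metabolic genes had -1.95 (Slc7a11), -2.95 (Cth), 1.35 (Slc2a1), 2.15 (Bnip3), 2.01 (Ndrg1) and -2.31 (Cox6a2). Macrophage surface genes had -1.33 (Emr1), 2.21 (Cx3cr1), -1.24 (Siglec1), -1.24 (Lyz2), -1.62 (Marco), -1.14 (Mrc1), -1.82 (Fcgr1), -3.76 (Clec4n), -1.18 (Tlr2) and -1.22 (Tlr1). The remaining genes were Thbs1 (-2.85), Mmp8 (-2.47), Ptger2 (-2.43), Extl1 (-2.44), Frmd6 (2.14), Arhgap22 (2.07) and Hdac7 (2.05).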

How the results depend on the processing

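Of the genes named in the text, the calls of LPS+MP against MP were lost in some setting for Ikbke, Cd74, Tm7sf2, Extl1, Egr3, Sigirr and Irf1. Interaction calls were lost for Csf3 (0.88 with a pseudocount of 0.1), Ptgs2 (-0.95 with quantile normalization), Csrnp1 (0.93 without MP replicate 3), Maff (0.95 without LPS replicate 2), Mrc1 and Egr3. The interaction of Il6 reversed from 0.14 to -2.02 and that of Il10 from -1.27 to 0.09 with a pseudocount of 0.1; the cause was not tested, and both genes were at 1.46 CPM or lower in every library without LPS. Without the size threshold 2232 genes were higher and 4295 lower in LPS+MP against MP, 757 and 1826 in the interaction, and 3119 and 4178 in LPS against control. With quantile normalization 193 genes were higher and 306 lower in the interaction, so that 38.7% of its calls were higher, against 21.7% in the main fit. With median-ratio scaling 144 were higher and 390 lower (27.0% higher). Leaving out each library in turn gave 662 to 677 rises and 889 to 941 falls in LPS+MP against MP, 98 to 149 higher and 421 to 466 lower genes in the interaction, and 963 to 1004 rises and 888 to 1047 falls in LPS against control. With a pseudocount of 0.1, 770 genes rose and 1151 fell in LPS+MP against MP, and with a minimum of 5 CPM 592 and 854. The overlap of calls and the list counts of the interaction without LPS replicate 2 were added after seeing the data. No pairing of same-numbered libraries was detected, though 3 libraries per group could not show its absence. With the replicate block 671 genes rose and 926 fell, as without it, and 119 and 433 genes were called in the interaction. The MP and LPS+MP pairs had residual correlations of -0.012, -0.051 and 0.024, and for 3 of the 12 libraries the best correlate carried the same number. Depth per library is unknown, so values near 0 CPM carry no counting error, and 3 libraries per group limit all tests.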

Other observations

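Of 34 lysosomal genes tested 1 rose and 2 fell (median -0.05), which is 8.82% of them beside 13.6% of all genes. Npc2, a cholesterol carrier of the lysosome, was 366, 381 and 400 CPM in MP and 990, 878 and 805 CPM in LPS+MP (1.21 ± 0.09). Lipa, the lysosomal acid lipase, fell from 658, 620 and 678 CPM to 286, 262 and 280 CPM (-1.24 ± 0.07). Tfeb, a regulator of lysosome genes, fell from 19.8, 22.8 and 20 CPM to 5.15, 6.27 and 7.69 CPM (-1.58 ± 0.16). The groups did not overlap in any of the 3 genes, which held for every called gene and for 68.6% of all genes tested.

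Some genes outside the lists had among the most positive interactions, and their means in control, MP, LPS and LPS+MP follow. Frmd6, a FERM domain gene, stood at 29.3, 7.32, 33.4 and 40.6 CPM and rose with LPS only in MP-treated cells by the call rule (2.33 ± 0.10 against 0.18; interaction 2.14, limma adjusted p = 1.24e-07). Id3, an inhibitor of helix-loop-helix factors, stood at 36, 15.6, 31.5 and 59.9 CPM (1.88 ± 0.10 against -0.19). Hdac7, a class IIa histone deacetylase, stood at 25, 4.37, 8 and 6.66 CPM and was not called in MP-treated cells (0.52 ± 0.11). In the prostaglandin pathway Ptger2, the receptor EP2, stood at 4.54, 32.4, 45.7 and 51.5 CPM, a change of 0.65 ± 0.11 with MP against 3.08 without.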
